A study of Mus musculus with 12 samples.

Results

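Heat shock proteins and their co-chaperones were examined in mammary tumors of female MMTV-neu mice fed an agonist of the retinoid X receptor (RXR), a nuclear receptor that pairs with other nuclear receptors to switch genes on and off. The members are all genes whose name starts with Hsp or Dnaj in either of the deposited tables of gene expression. There were 9 of them, 6 Hsp and 3 Dnaj genes, among 2876 gene names. For comparison, the GENCODE mouse annotation holds 90 genes with these prefixes, of which 75 are protein-coding. How many of these were tested is not known, so 9 listed genes are not a result about the family.

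In these mice the mouse mammary tumor virus promoter drives the Neu oncogene in the mammary epithelium. All tumors share this genotype, and 4 tumors came from each of 3 groups. The groups received a control diet, V-125 at 100 mg/kg diet or bexarotene at 100 mg/kg diet for 10 days. V-125 and bexarotene are both synthetic RXR agonists. Ages are not given in the sources used here. RNA came from pieces of whole tumor, so fewer cells of a type and less RNA per cell cannot be told apart. The epithelial adhesion gene Epcam was listed with between 28485 and 53468 normalized counts in each of the 8 control and V-125-treated tumors, which matches the labelled mammary tumor tissue.

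The values are normalized counts, which are reads counted on a gene divided by 1 size factor per tumor. Reads counted on genes numbered 15571690 in the shallowest and 22574865 in the deepest tumor. Values per tumor were available for V-125 and control, and the authors' group mean alone was used for bexarotene, so bexarotene values carry no SD and no test. Both tables list only genes that passed an unadjusted p-value of 0.05 in the authors' own comparison. These were 1589 of 15310 tested genes for V-125 and 1784 of 18687 for bexarotene. Every member was therefore selected on the contrast described here. Its tests are given as descriptions and are not independent support for a change, and a chaperone gene outside the tables is not known to be unchanged.

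Hsp70 proteins bind exposed hydrophobic stretches of unfolded proteins and release them in a cycle driven by ATP. DnaJ proteins, also called J proteins, deliver clients and start that cycle through their J domain, and several of them act at or inside the endoplasmic reticulum (ER). Small heat shock proteins hold unfolded proteins without using ATP, while a chamber of Hsp60 with its Hsp10 lid folds proteins in mitochondria. Heat shock factor 1 (HSF1) switches on many of these genes when unfolded proteins accumulate, by binding inverted repeats of the letters GAA. Tumor cells often keep this system active, because they carry many proteins that fold poorly.

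Promoter stretches of the lower members are shown first, because they hold at least 2 units of the repeat that HSF1 binds. The letters searched were GAANNTTC and TTCNNGAA, 2 units of the HSF1 element that face each other or point away from each other, and both read the same on either strand. Promoters of 300 bases, 250 upstream and 50 downstream of the RefSeq start site (GRCm38), were available for 6 members. These letters occurred in 4 of the 4 promoters of members that were lower with V-125, namely Hspa1b, Hspa1a, Hspb1 and Hspe1. They occurred in 0 of the 2 promoters of higher members, Dnajc1 and Dnajc3. Of all 32851 promoters in the table, 15.1% hold them. The 4 lower members are all Hsp genes and the 2 higher ones are Dnaj genes, so direction and gene family cannot be told apart here. These counts were not tested, since the direction was chosen on the same contrast and Hspa1a and Hspa1b, whose upstream sequences differ at 3 of 250 bases, count nearly as 1 promoter. The capitals below mark the matches, and each stretch runs 5′ to 3′ on the strand of the gene.
Hspa1b: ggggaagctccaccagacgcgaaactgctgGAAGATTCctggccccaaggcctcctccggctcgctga
Hspb1: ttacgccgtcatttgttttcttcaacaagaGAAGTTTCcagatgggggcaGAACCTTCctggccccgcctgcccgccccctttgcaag
Hspe1: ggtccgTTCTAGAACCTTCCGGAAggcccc
The Hspa1b stretch lies at chr17:34959305-34959372 on the minus strand, and its match begins at position −104 from the start site. The same letters stand at the same distance before Hspa1a, at chr17:34972223-34972290. The Hspb1 stretch lies at chr5:135887772-135887859 on the plus strand, with matches that begin at −117 and −97. The Hspe1 stretch lies at chr1:55088053-55088082 on the plus strand, where matches that begin at −89, −84 and −79 overlap each other. Hspe1 was the one member whose promoter held 3 or more units in a row, an arrangement present in 0.603% of all promoters. A match of letters is a description and was not tested as a binding site. Hspb2, Dnajc12 and Hsp25-ps1 are not in the promoter table.

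With V-125, the 6 Hsp genes had lower means than control and the 3 Dnaj genes had higher means. Of all listed genes, 48.6% had lower and 51.4% had higher means. The 6 Hsp genes are not 6 separate signals. Hspa1a and Hspa1b are near copies, Hsp25-ps1 cannot be told apart from reads of Hspb1, and Hspb2 was near its detection limit. The groups did not overlap for 4 members, Hspa1b and Hspa1a on the lower side and Dnajc12 and Dnajc1 on the higher side. Among all 1589 listed genes, 17.6% were lower and 21.1% were higher without overlap, so 2 of 9 on each side is close to the background and is not a result about chaperone genes. In limma-voom, a linear model of log2 counts fitted to the 1333 listed genes with enough reads, 7 of the 9 members could be fitted. After Benjamini-Hochberg adjustment over the 15310 genes of the authors' comparison, 0 of the 7 passed an adjusted p of 0.05, as did 0.0% of all fitted genes. At an unadjusted p of 0.05, 4 of the 7 members passed, against 66.4% of all fitted genes. In edgeR 0 members and 0 of all fitted genes passed after adjustment. At an unadjusted p of 0.05, edgeR passed 6 of the 7 members, against 71.5% of all fitted genes. DESeq2 passed 2 members after adjustment, Hspa1a and Hspa1b, against 9.3% of all fitted genes. The same 2 members passed when limma-voom was adjusted over the 1333 fitted genes alone, against 11.3% of them. All these fits estimate the spread from genes that were selected on this contrast, which bears on every standard error and adjusted p given here.

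**Figure D1:**
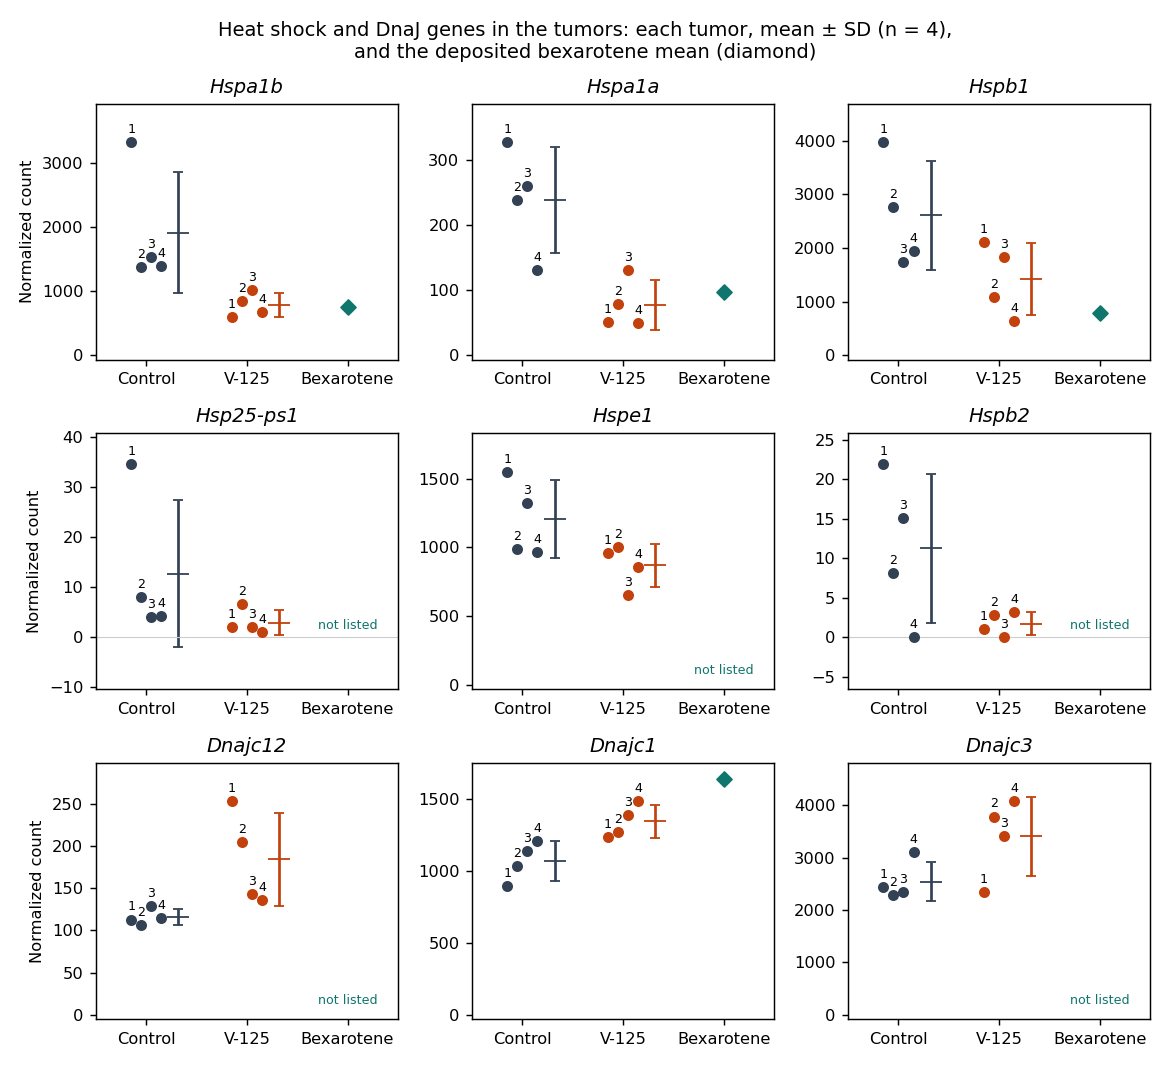
Normalized counts of the 9 genes on linear axes that include 0. Points are single tumors with their replicate numbers, bars are the mean ± SD of 4 tumors, and diamonds are the authors' bexarotene means for the 4 genes listed in that table, which was scaled separately. Control replicate 1 is the highest control tumor in each of the 6 Hsp panels, and the V-125 and control points separate for Hspa1b, Hspa1a, Dnajc12 and Dnajc1.

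The inducible Hsp70 genes are described first. Hspa1b (ENSMUSG00000090877, GRCm38 chr17:34956436-34959238, minus strand) encodes an Hsp70 that cells make in large amounts under stress. Its normalized counts were 3327, 1384, 1539.8 and 1402 in control replicates 1 to 4. In V-125-treated tumors they were 602, 849, 1025 and 670.4. All 4 treated tumors lay below all 4 control tumors, and control replicate 1 stood far above the other three. The means were 787 ± 189.9 with V-125 and 1913 ± 945 in control (SD, n = 4), which is 41.1% of the control level (two-sided exact permutation test on log2(normalized count + 1), p = 0.0286, the smallest that 4 against 4 tumors can give). The limma-voom log2 fold change was −1.20 with a standard error of 0.30 and an adjusted p of 0.535. Without control replicate 1 the treated mean was 54.6% of control and the log2 fold change was −0.90.

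Hspa1a (ENSMUSG00000091971, chr17:34969190-34972156, minus strand) is the neighboring inducible Hsp70 gene, 9951 bases away. Its normalized counts in control replicates 1 to 4 were 327, 238, 259.6 and 131.46. V-125-treated tumors held 51.1, 78.8, 131.07 and 49.7. The groups just failed to touch, since treated replicate 3 and control replicate 4 were nearly equal. The mean was 77.7 ± 38.0 with V-125 and 239 ± 81.3 in control (SD, n = 4), or 32.5% of control (exact permutation p = 0.0286). The log2 fold change in limma-voom was −1.63 with a standard error of 0.41 and an adjusted p of 0.532. In DESeq2 the adjusted p was 0.0181 for Hspa1a and 0.0253 for Hspa1b, and over the limma-voom, edgeR and DESeq2 settings tried, these values ranged from 0.0181 to 1 and from 0.0253 to 1.

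Hspa1a and Hspa1b are near copies, and the split of reads between them is uncertain. Their coding sequences were identical in 1915 of 1926 aligned columns, or 99.4%. Of the 100-base windows of the Hspa1b transcript, 49.9% also occur in Hspa1a, and 47.1% of those of Hspa1a occur in Hspa1b. How reads that match both genes were counted is not given in the sources used here. Hspa1a reads amounted to between 7.41% and 12.8% of Hspa1b reads in V-125-treated tumors and between 9.38% and 17.2% in control tumors. The sum of both genes does not depend on the split between them. It was 864 ± 227 with V-125 and 2152 ± 1008 in control (SD, n = 4), or a ratio of 0.402 (exact permutation p = 0.0286), and the ratio was 0.523 without control replicate 1. Hspa1l, the related gene that begins 546 bases beyond Hspa1a, was in neither table, and the annotated gene Gm20481 overlaps 2225 bases of Hspa1a on the opposite strand.

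The small heat shock genes were also lower on average, with groups that overlapped. Hspb1 (ENSMUSG00000004951, chr5:135887919-135889563, plus strand) encodes Hsp25, the mouse form of human HSP27, which holds unfolded proteins and also acts on the actin skeleton. Control replicates 1 to 4 had 3974, 2773, 1743 and 1951 normalized counts. In V-125-treated tumors the values were 2115, 1088, 1842 and 643. Treated replicates 1 and 3 lay above control replicate 3, so the groups overlapped. The means were 1422 ± 677 with V-125 and 2610 ± 1012 in control (SD, n = 4; exact permutation p = 0.143), and the limma-voom log2 fold change was −0.94 with a standard error of 0.39 and an adjusted p of 0.812. Without control replicate 1 the treated mean was 66.0% of control, compared to 54.5% with it.

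Hsp25-ps1 (chr13:45078498-45079127, minus strand) is annotated as a processed pseudogene, a copy of Hspb1 that was reinserted into the genome from its RNA. In control replicates 1 to 4 it had 34.6, 8.09, 3.99 and 4.27 normalized counts, and in V-125-treated tumors 2.04, 6.65, 1.99 and 1.06. Control replicate 1 stood apart and treated replicate 2 lay within the control range. Of its 100-base windows, 85.3% also occur in the Hspb1 transcript, and its reads made up between 0.0966% and 0.870% of Hspb1 reads in each tumor, so its own RNA cannot be told apart from reads of Hspb1. Hspb2 (chr9:50751078-50752354, minus strand), a small heat shock gene best known from heart and skeletal muscle, was near its detection limit. Its control values were 21.9, 8.09, 15.2 and 0, and its V-125 values were 1.02, 2.85, 0 and 3.17. It shares 1030 bases on the opposite strand with the small heat shock gene Cryab, and whether reads were counted by strand is not given in the sources used here. The exact permutation p was 0.0857 for Hsp25-ps1 and 0.171 for Hspb2, and neither had enough reads for the model fit.

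Hspe1 (ENSMUSG00000073676, chr1:55088132-55091307, plus strand) encodes the Hsp10 lid of the mitochondrial folding chamber. Its control values were 1551, 989.5, 1322 and 965, and its V-125 values were 959.6, 1003, 655 and 859.7. Control replicates 2 and 4 lay among the treated tumors. The treated mean was 869 ± 155 and the control mean 1207 ± 281 (SD, n = 4; exact permutation p = 0.114), with a limma-voom log2 fold change of −0.46, a standard error of 0.21 and an adjusted p of 0.873. Hspd1, which encodes the Hsp60 chamber itself, is its divergent neighbor and overlaps it by 112 bases on the opposite strand, yet it was in neither table.

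With V-125 the 3 J protein genes had higher means than control, although 0 of them passed the adjusted test. Dnajc12 (ENSMUSG00000036764, chr10:63382443-63410576, plus strand) encodes a co-chaperone of the aromatic amino acid hydroxylases. Control replicates 1 to 4 had 113, 106, 129 and 114 normalized counts, and V-125-treated tumors had 253, 205, 143 and 136. The treated tumors all lay above the control tumors and varied more among themselves. The means were 184.5 ± 55.4 and 116 ± 9.35 (SD, n = 4), a ratio of 1.60 (exact permutation p = 0.0286), with a limma-voom log2 fold change of 0.62, a standard error of 0.27 and an adjusted p of 0.849.

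Dnajc1 (ENSMUSG00000026740, chr2:18195654-18392830, minus strand) encodes a J protein of the ER membrane. Its control values were 893, 1035, 1139 and 1209.6, and its V-125 values were 1235, 1273, 1391 and 1485. The groups did not overlap, but the highest control tumor lay close under the lowest treated one. The ratio of means was 1.26, from 1346 ± 114 against 1069 ± 137 (SD, n = 4; exact permutation p = 0.0286), and limma-voom gave a log2 fold change of 0.33 with a standard error of 0.15 and an adjusted p of 0.868. Mllt10 overlaps 16735 bases of Dnajc1 on the opposite strand.

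Dnajc3 (ENSMUSG00000022136, chr14:118937976-118981697, plus strand) encodes a co-chaperone in the ER lumen that works with the ER Hsp70 BiP and is also known as an inhibitor of stress kinases. Control replicates 1 to 4 had 2444, 2288, 2338 and 3108 normalized counts, and V-125-treated tumors had 2352, 3788, 3416 and 4079.7. Treated replicate 1 lay within the control range while the other three lay above it. The means were 3409 ± 755 and 2545 ± 381 (SD, n = 4), a ratio of 1.34 (exact permutation p = 0.0857), with a limma-voom log2 fold change of 0.40, a standard error of 0.20 and an adjusted p of 0.973.

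**Figure D2:**
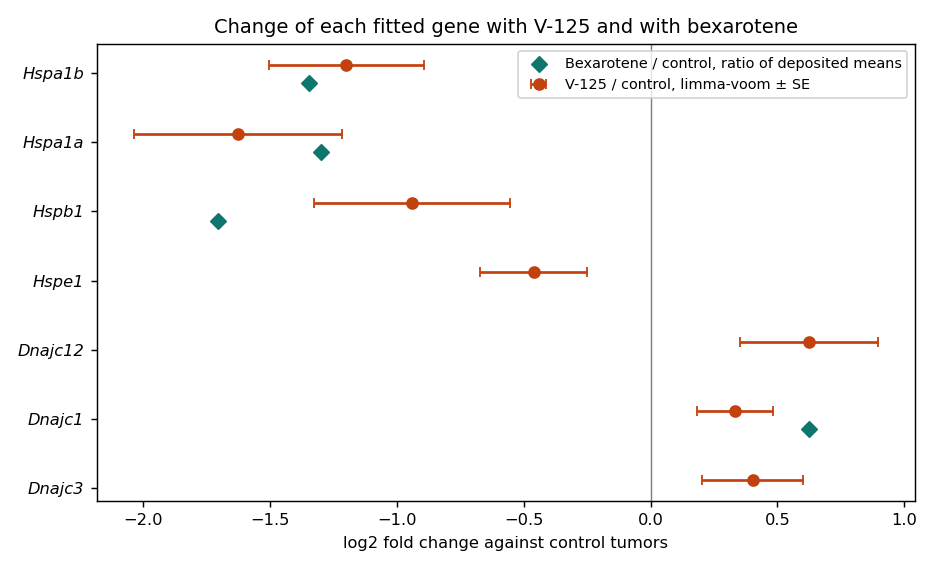
Log2 fold change against control tumors for the 7 genes with enough reads for the model. Circles with bars are the limma-voom estimate ± SE for V-125 (4 against 4 tumors), and diamonds are the log2 ratio of the authors' bexarotene and control means, which have no error. Hspa1a, Hspa1b, Hspb1 and Hspe1 lie left of 0, and Dnajc12, Dnajc1 and Dnajc3 lie right of it.

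Levels of different genes were compared per length, as FPKM in control tumors. Hspb1 was the highest member at 141 ± 54.9 FPKM (SD, n = 4). Hspe1 with 45.4 ± 10.7, Hspa1b with 37.9 ± 18.9 and Dnajc3 with 27.5 ± 4.07 FPKM followed, and the values of neighbors in this order overlapped between tumors, while the lowest Hspb1 tumor, at 93.7, was above the highest tumor of these 3 genes. Dnajc1 at 5.09 ± 0.642 and Hspa1a at 4.47 ± 1.53 FPKM overlapped as well. Dnajc12 at 1.43 ± 0.116, Hsp25-ps1 at 1.12 ± 1.30 and Hspb2 at 0.752 ± 0.628 FPKM were the lowest, with overlapping tumors. With V-125, the mean of Hspb1 was 76.5 FPKM, that of Dnajc3 36.7 and that of Hspa1b 15.5, and the Dnajc3 values lay above those of Hspa1b in all 4 treated tumors.

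The height of the Hsp genes in control rested in part on 1 tumor. Control replicate 1 was the highest control tumor for all 6 lower members, whereas it was the highest control in 41.6% of the 772 listed genes with a lower V-125 mean. On the log2 scale, Hspa1b lay 1.51 above its mean over the 8 tumors in this tumor, and Hspa1a lay 1.35 above. The same tumor had the highest Epcam count, 53468, and the lowest counts of the 8 tumors for the endothelial genes Plvap, with 712, and Kdr, with 251. Egfl7, the remaining listed endothelial gene, went the other way, with 341 counts in this tumor, the highest of the control tumors. Of the other listed epithelial markers, Cdh1 was highest of the 8 tumors here, with 9150. Esr1 was lowest, with 190, and Wap, with 777, was below control replicate 2. The muscle marker Acta2 was highest, with 951, and the adipocyte marker Lipe lowest, with 248. Of the immediate early genes described below, Ier3, with 7916, and Jun, with 2646, were highest of the 8 tumors here. Ier5l, Klf2 and Nr4a2 were each higher in at least 1 other tumor. The part of tumor composition or handling in these values was not tested. Without control replicate 1 the groups still did not overlap for Hspa1b, Hspa1a, Dnajc12 and Dnajc1, as for 47.6% of all listed genes. An unadjusted limma-voom p of 0.05 was then passed by 2 of the 7 fitted members in place of 4, while the share of all fitted genes went from 66.4% to 50.2%. Leaving out other tumors gave between 3 and 6 members.

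**Figure D3:**
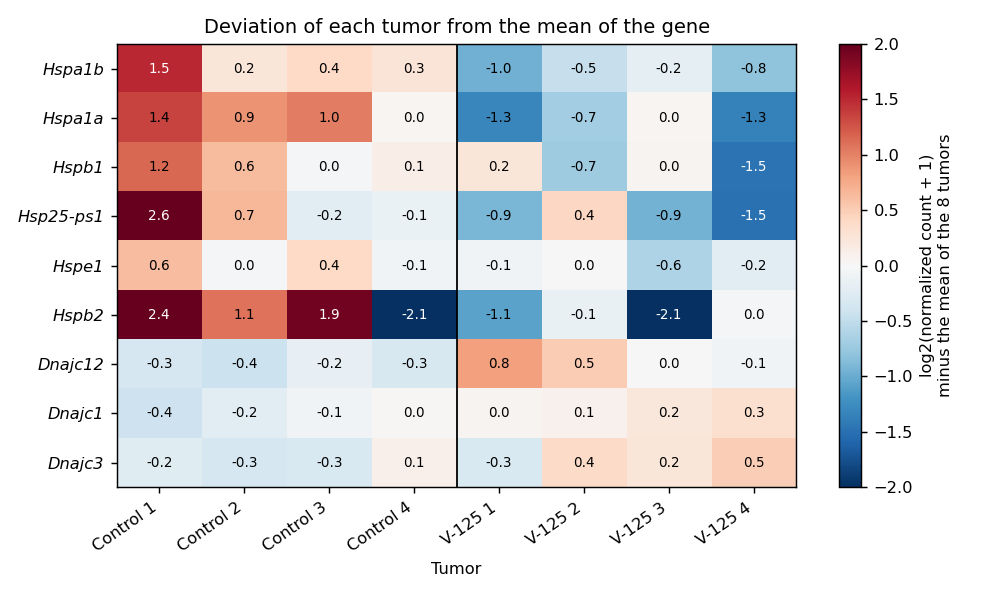
Deviation of each tumor from the mean of the 8 tumors for the 9 genes, as log2(normalized count + 1). Red is above and blue is below the mean, colors stop at the ends of the scale, and the printed numbers give each value. Control 1 is the reddest control column for the 6 Hsp genes, and the 3 Dnaj genes deviate by less than 1 in every tumor.

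For bexarotene, 4 members were listed, Hspa1b, Hspa1a, Hspb1 and Dnajc1, and all of them were also listed for V-125. The authors' mean of Hspa1b was 749 normalized counts with bexarotene and 1904 in control, or 39.3% of control, beside 41.1% for V-125. For Hspa1a the means were 96.8 and 238, or 40.7% of control, beside 32.5% for V-125. The bexarotene mean of Hspb1 was 797 against 2597 in control, or 30.7%, beside 54.5% for V-125. Dnajc1 had means of 1637 and 1063, a ratio of 1.54, beside 1.26 for V-125. Thus 3 of the 4 were over 1.5-fold lower and 1 was over 1.5-fold higher. The same sizes were reached on the lower side by 48.5% and on the higher side by 31.7% of all listed genes. Both compounds were given at the same dose for the same time and were compared to the same control tumors, so the agreement of direction is not independent, and the difference between the compounds could not be tested from group means. The other 5 members were listed for V-125 alone, and their bexarotene levels were not analysed here.

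Other genes of the chaperone system were counted from lists of the pathways. Of 38 HSF1 and cytosolic co-chaperone genes, 3 were listed for V-125, all lower, and 0 higher, whereas 51.4% of all listed genes were higher. Serpinh1, the collagen chaperone of the ER and a heat shock gene, had 6763, 6331, 6302 and 6139 normalized counts in control and 3349.8, 4499.5, 4307 and 2758 with V-125. Its groups did not overlap, the control tumors were nearly equal, and the ratio of means was 0.584 (exact permutation p = 0.0286), beside 0.640 for bexarotene. Cryab, a small heat shock protein, had a ratio of 0.391 with overlapping groups (exact permutation p = 0.0857, n = 4), beside 0.422 for bexarotene. Fkbp5, an Hsp90 co-chaperone of steroid receptors that glucocorticoids induce, had a ratio of 0.739 and overlapping groups. For bexarotene, 2 genes of this list were listed, both lower. In both tables, 0 of 14 genes of the cytosolic folding chamber TRiC and of prefoldin were listed, and 0 of 15 mitochondrial chaperones and proteases. Of all tested genes, 1589 of 15310 were listed for V-125 and 1784 of 18687 for bexarotene. At these shares such short lists hold few listed genes, so the counts of 0 are not a result about these lists. The number of listed genes was not tested for any list.

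The list of ER chaperones and of the unfolded protein response, the ER counterpart of the heat shock response, was mixed. Of 41 genes, 4 were listed higher and 2 lower for V-125, where 51.4% of all listed genes were higher. Groups did not overlap for 2 of the higher and 2 of the lower genes. Among all 1589 listed genes, 21.1% were higher and 17.6% lower without overlap, shares that apply to the other lists as well. The difference from these shares was not tested. Derl3 and Sel1l, which serve the removal of misfolded proteins from the ER, had ratios of 2.44 and 1.77, and Creld2, which is induced by ER stress, had a ratio of 1.79. The groups did not overlap for Sel1l and did for Derl3 and Creld2. The fourth higher gene was Edem1, which also serves the removal of misfolded proteins, with a ratio of 1.28 and non-overlapping groups. Sdf2, an ER protein related to the stress gene Sdf2l1, was lower with a ratio of 0.704 and non-overlapping groups (exact permutation p = 0.0286, n = 4). The other lower gene was Xbp1, the transcription factor that drives much of this response, with a ratio of 0.739 and non-overlapping groups, and Edem1 and Xbp1 are named here after their values were seen. The table does not separate spliced from unspliced Xbp1 RNA. For bexarotene, 2 genes of this list were listed, both higher, with ratios of 1.87 for Sel1l and 1.54 for Creld2. The V-125 table held 0 of 17 ubiquitin and proteasome stress genes, and the bexarotene table held 2, Sqstm1 with a ratio of 0.711 and Nfe2l1 with 0.623.

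Immediate early genes respond within minutes to stimulation and to tissue handling, as the inducible Hsp70 genes also can. Of 27 such genes, 3 were listed lower and 2 higher for V-125. Ier5l had a ratio of 0.519, Ier3 of 0.566, Klf2 of 1.68 and Nr4a2 of 1.59. The groups overlapped for the first 3 of these and not for Nr4a2. For bexarotene, 9 were listed lower and 1 higher, where 43.3% of all listed genes were higher. Gadd45b had a ratio of 0.222, Ier5l of 0.323, Junb of 0.408 and Klf4 of 0.443. The handling time of each tumor is not given in the sources used here, and its part in the Hsp70 values was not tested.

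**Figure D4:**
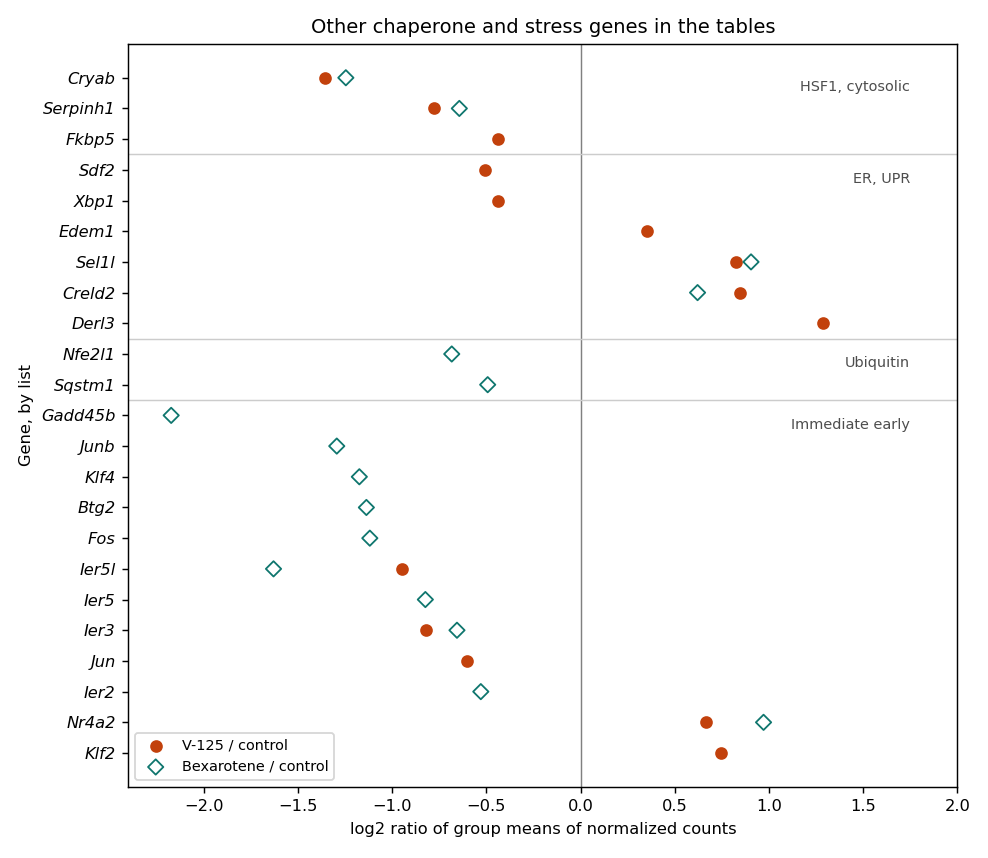
Log2 ratio of group means of normalized counts against control for the genes of the other chaperone and stress lists that the tables hold. Filled circles are V-125 and open diamonds are bexarotene, without error bars because bexarotene has group means alone. The 3 listed HSF1 and cytosolic genes lie left of 0 for both compounds where listed, the ER genes lie on both sides, and 9 of 10 immediate early genes listed for bexarotene lie left of 0.

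Markers of other cell types that a tumor piece can hold were listed in both directions, and the summed level of each list is not known because the tables leave out genes that did not pass. For V-125, 3 of 12 endothelial markers were listed, all higher, with non-overlapping groups for Plvap (ratio 1.69) and Kdr (ratio 1.80). The groups overlapped for Egfl7 (ratio 1.57). Of all listed genes, 51.4% were higher, and 21.1% were higher without overlap. Of 13 mammary epithelial markers, 3 were listed lower and 1 higher. Epcam was lower with a ratio of 0.758 and non-overlapping groups. Wap, a milk protein gene, had a ratio of 0.207 with overlapping groups (exact permutation p = 0.286, n = 4). Its control tumors, to which bexarotene was also compared, ranged from 33.3 to 784 normalized counts. Of 14 leukocyte markers 1 was listed, the lower Itgam with 0.550, and of 18 muscle markers 2 were listed, Acta2 with 0.378 and overlapping groups (0.208 without V-125 replicate 1) and Myh4, which is listed at 0 in the control tumors. Lipe, 1 of 10 adipocyte markers, was higher with a ratio of 1.61, and 0 of 10 fibroblast markers were listed. For bexarotene, 4 of 13 epithelial markers were lower, with the milk protein genes Wap at 0.132 and Csn2 at 0.200, while the adipocyte genes Plin4 and Fabp4 had ratios of 4.64 and 3.37. The smooth muscle gene Myh11 had a ratio of 2.88, the fibroblast marker Pdgfrb of 0.598, and the leukocyte markers Itgam and Csf1r of 0.435 and 0.563, and 0 of 12 endothelial markers were listed. The part of these markers in the chaperone values was not tested.

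The genes whose pattern over the 8 tumors was most like that of Hspa1b were found among the other 1588 listed genes, by the root mean square difference of standardized log2 values. The processed pseudogene Gm15798 and 1110008P14Rik both had a difference of 0.203, and Ubl7, a ubiquitin-like gene, had 0.228. Gm15798 had 16.1, 3.47, 4.79 and 4.27 normalized counts in control and 0, 1.90, 1.99 and 0 with V-125. Its place thus rests on values near the detection limit. 1110008P14Rik had 4443, 2454, 2562 and 2337 normalized counts in control and 1450.1, 1851, 1619.5 and 1433 with V-125. Control replicate 1 was again the highest tumor. Hspa1a took place 38 with a difference of 0.378, Hsp25-ps1 place 116 and Hspb1 place 349. Since every gene in the table was chosen on the same contrast, likeness is a description of these 8 tumors.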

How the data were processed

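RNA from 12 frozen mammary tumors was sequenced after polyA enrichment, and the sample labels gave groups and replicate numbers. The submitters' processing notes name STAR 2.6.1d, featureCounts 1.5.0-p3 and limma, and the genome build is not given in the sources used here. All 9 members had the coordinates of GENCODE M21 on GRCm38. For V-125 and control, the authors deposited raw read counts per tumor, normalized counts (a signal, in which 1 size factor per tumor divides the counts) and FPKM values computed with a deposited gene length. For bexarotene, the deposited group means of the normalized counts were used. Control means of the tables differed by a factor of 1.0027 to 1.0115. The authors also deposited log2 fold changes, p-values and adjusted p-values of their comparisons. The p-values were read only to find that genes above 0.05 are left out and how many genes were tested. These were 15310 for V-125 and 18687 for bexarotene, and no other value of these columns was used.

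The members and gene lists were chosen with earlier results of these data known. For each member, all 70 ways to assign the 8 tumors to groups gave an exact two-sided permutation p on log2(normalized count + 1). The counts of all listed genes that passed filterByExpr were fitted with limma-voom (limma 3.58.1, R 4.3.3) with the authors' size factors, with Benjamini-Hochberg adjustment over 15310 tests. The alternatives were edgeR 4.0.16 (quasi-likelihood test), DESeq2 1.42.0, scaling by library totals or TMM, no filter, adjustment over the listed genes alone, a block for the replicate number, and fits without each single tumor. For the overlap of groups they were library totals, the filter and leaving out each tumor, and for bexarotene the control mean of the other table and a ratio of 2. The sum of Hspa1a and Hspa1b was added after seeing the data. The fits were tested on simulated data. All fits share variance over genes that the authors' p-values had selected. Members with non-overlapping groups, members in both tables and Hspa1b were described in full, and of each other list at most 4 genes were named, those with the largest log2 ratio of means in either direction. The separate labels of the tumors are the basis for treating them as replicates, and p-values measure the spread between them. Promoter sequences are from RefSeq (GRCm38). Python 3.11.15, numpy 2.4.6, pandas 2.3.3 and scipy 1.17.1 were used for other steps. Bexarotene values per tumor were not used here.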

Additional observations from a re-analysis of the deposited data

Results flagged for a closer look

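In 2 of 18 groups of 4 tumors examined, 1 tumor stood apart by Dixon's ratio, the gap to the nearest tumor divided by the range, which lay above the critical value for 4 tumors. Hspa1b had 3327 normalized counts in control replicate 1, with a ratio of 0.920. Hsp25-ps1 had 34.6 normalized counts in the same tumor, with a ratio of 0.866. Both ratios were computed on normalized counts and not on the log2 scale of the tests. On the log2 scale, Hspa1b deviated from its mean by 1.51, 0.24, 0.40 and 0.26 in control replicates 1 to 4. Control replicate 1 thus still stood apart from the other control tumors for Hspa1b. Hsp25-ps1 deviated from its mean by 2.63, 0.66, −0.21 and −0.13 in the same tumors, where control replicate 2 lay in between, so its flag depends more on the scale. Chance flags about 1 in 20 groups, and both values come from 1 tumor, so they are not independent of each other.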

How the results depend on the processing

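Of 136 values recomputed under alternatives, 130 kept their direction and their side of the threshold or stayed within 1.5 times the original count, 6 newly passed the threshold and 0 reversed. These values are not independent of each other. The 6 all come from Hspa1a and Hspa1b, counted per gene and again in the number of members. The number of members with an adjusted p under 0.05 was 0 with limma-voom and edgeR, and 2 with DESeq2 or when limma-voom was adjusted over the 1333 fitted genes alone (9.3% and 11.3% of all fitted genes). Those 2 were Hspa1a and Hspa1b both times, and the cause was not tested for DESeq2, while fewer tests enter the adjustment over the listed genes. Leaving out 1 tumor at a time gave 0 such members each time, and between 4 and 6 of the 9 members with non-overlapping groups, where 44.3% to 53.8% of all listed genes did not overlap. The log2 fold change of Hspa1b then ranged from −1.34 to −0.90, that of Hspa1a from −1.91 to −1.46 and that of Hspb1 from −1.18 to −0.61. With a ratio of 2 in place of 1.5, 3 of the 4 bexarotene members remained.

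With the replicate block, 0 members passed after adjustment, and the log2 fold change was −1.22 for Hspa1b and −1.62 for Hspa1a. The correlations of deviations between tumors with the same number were 0.12, −0.05, −0.19 and 0.08. Between tumors with different numbers they ranged from −0.25 to 0.27. No pairing by number was seen, although 4 correlations cannot exclude it. With the block, 840 genes had an unadjusted p under 0.05, beside 885 without it.

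Hsp25-ps1 and Hspb2 had at most 30 and 19 reads per tumor, and a change in them was not resolved at this depth. With 4 tumors per group the permutation test cannot go below 0.0286, and the shared sequence of Hspa1a with Hspa1b limits what each gene's value means on its own.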
